A study of Mus musculus with 17 samples.

Results

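The genes considered here encode steps of the RAS-RAF-MEK-ERK kinase cascade. Of 7 genes named for this group (Braf, Araf, Hras, Nras, Map2k1, Map2k2 and Mapk3), 4 had a transcript cluster that maps to that gene alone: Araf, Nras, Map2k1 and Map2k2. Each had 1 such transcript cluster among the 14939 that carry a single gene symbol, so no choice between clusters was needed. Braf, Hras and Mapk3 were not analysed here.

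RNA came from alveolar tissue and lesions cut by laser from haematoxylin-stained mouse lung cryosections and was measured on 17 Affymetrix Mouse Exon 1.0 ST arrays. The transgenic mice carry SPC/cRaf, in which the surfactant protein C promoter drives the c-Raf kinase in alveolar epithelial cells. Their lungs gave 4 dysplasias, pre-neoplastic lesions, and 4 pieces of microscopically unaltered lung, all labelled male and from mice of 5 to 6 months. They also gave 4 adenocarcinomas, 3 labelled male and 1 female, from mice of 11.5 to 14 months. The control was lung of 5 non-transgenic, wild type mice, 2 labelled male and 3 female, of 7 to 11 months. Dysplasia, unaltered lung and adenocarcinoma thus share the transgene, and unaltered lung differs from the control in genotype without a visible lesion. The same 4 animal labels occur in the dysplasia and the unaltered groups, and 3 arrays carry the names of 2 animals, so these may be pools. Ages overlap only between dysplasia and unaltered lung, so age goes with the group in the other comparisons.

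RAS proteins are membrane-bound GTPases that switch on when growth factor receptors recruit exchange factors. GTP-bound RAS recruits RAF kinases, which phosphorylate the MEK kinases, and MEK phosphorylates ERK. In lung epithelium the cascade drives growth, and mutant RAS or RAF genes start lung tumours in mice. It is controlled largely by phosphorylation and GTP loading, which mRNA levels do not show.

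Array medians lay between 6.67 and 6.85 on the log2 scale and went with the group. They were 6.67 to 6.77 in unaltered lung and 6.71 to 6.80 in adenocarcinoma, against 6.81 to 6.85 in both dysplasia and non-transgenic lung. The unaltered arrays thus lay below all dysplasia and non-transgenic arrays, and results under other scalings are given at the end. The non-transgenic arrays formed 2 sets, replicates 1 to 3 and replicates 4 and 5. Spearman correlations over transcript clusters ran from 0.9751 to 0.9797 from one set to the other, and were 0.989 or more inside each. The levels of Eif2s3y and Kdm5d, which are Y-linked, did not match the sex given in the labels for 4 arrays: adenocarcinoma replicate 2 and replicates 2, 3 and 5 of non-transgenic lung. Their mean level was 3.78 and 3.67 on non-transgenic replicates 4 and 5, and 7.92 to 8.60 on all other arrays. By these genes the 2 sets of non-transgenic arrays thus differ in sex. The part of sex in the other differences between the sets was not tested. Alveolar markers were high: the mean level of 8 type II cell markers was 11.8 to 11.9 in non-transgenic lung and 12.8 to 12.9 in adenocarcinoma. That of 6 type I cell markers went the other way, from 11.2 to 11.4 in non-transgenic lung to 10.2 to 10.3 in adenocarcinoma. Of these 6 markers 4 were called lower, 1 higher and 1 not called. Among all transcript clusters 15.3% were called lower and 12.1% higher there. All values are log2 RMA values, and fold changes come from limma, adjusted for the sex in the labels, with arrays of the same animal treated as correlated. They therefore can differ a little from differences of the printed means. Calls have a Benjamini-Hochberg adjusted p under 0.05 over all 23238 transcript clusters.

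Map2k1, which encodes MEK1, changed in more of the comparisons than the other 3 genes did, rising in dysplasia and in adenocarcinoma. It lies on chromosome 9, and the paralogous gene Map2k2, which encodes MEK2, on chromosome 10. Both kinases phosphorylate ERK. Since these paralogs are compared with each other, the 250 bases before the annotated start of each gene are shown, 5′ to 3′ on the gene's strand, from RefSeq on GRCm38.p6. The Map2k1 window is chr9:64253606-64253855 on the minus strand, and the Map2k2 window is chr10:81105665-81105914 on the plus strand. Capitals mark matches on either strand to the GC box (GGGCGG or CCGCCC), the CCAAT box (CCAAT or ATTGG) and an ETS core (CCGGAA or TTCCGG).
Map2k1: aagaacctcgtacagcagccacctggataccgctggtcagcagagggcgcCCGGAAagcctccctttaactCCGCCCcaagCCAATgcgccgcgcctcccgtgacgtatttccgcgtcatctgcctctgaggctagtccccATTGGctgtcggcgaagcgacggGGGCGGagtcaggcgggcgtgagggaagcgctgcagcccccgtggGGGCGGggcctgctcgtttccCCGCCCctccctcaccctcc
Map2k2: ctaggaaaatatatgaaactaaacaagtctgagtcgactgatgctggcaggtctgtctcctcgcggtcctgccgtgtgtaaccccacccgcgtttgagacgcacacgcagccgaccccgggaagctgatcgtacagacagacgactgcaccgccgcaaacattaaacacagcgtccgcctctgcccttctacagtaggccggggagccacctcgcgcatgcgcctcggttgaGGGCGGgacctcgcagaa
The Map2k1 window held 4 GC boxes, 2 CCAAT boxes and 1 ETS core at 68.4% GC, and the Map2k2 window held 1 GC box at 59.6% GC. No match in these windows overlapped another. Among 32851 windows of the same length in the mouse, 32.7% held a GC box, 33.8% a CCAAT box and 12.0% an ETS core. These matches describe the letters only. Whether a factor binds there was not measured.

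In non-transgenic lung, Map2k1 read 9.96, 9.95, 10.00, 10.21 and 10.35 on replicates 1 to 5. Unaltered transgenic lung read 9.96, 9.87, 9.96 and 9.94. Dysplasia read 10.39, 10.37, 10.51 and 10.36, and adenocarcinoma 10.58, 10.69, 10.71 and 10.70. The lowest dysplasia array thus lay above all 9 arrays of lung without a lesion, and all 4 adenocarcinomas lay above all dysplasias. The 2 high non-transgenic arrays were the 2 that stood apart from the rest. The order of the group means was unaltered lung (9.93 ± 0.04, SD, n = 4), non-transgenic lung (10.09 ± 0.18, n = 5), dysplasia (10.41 ± 0.07, n = 4) and adenocarcinoma (10.67 ± 0.06, n = 4).

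**Figure D1:**
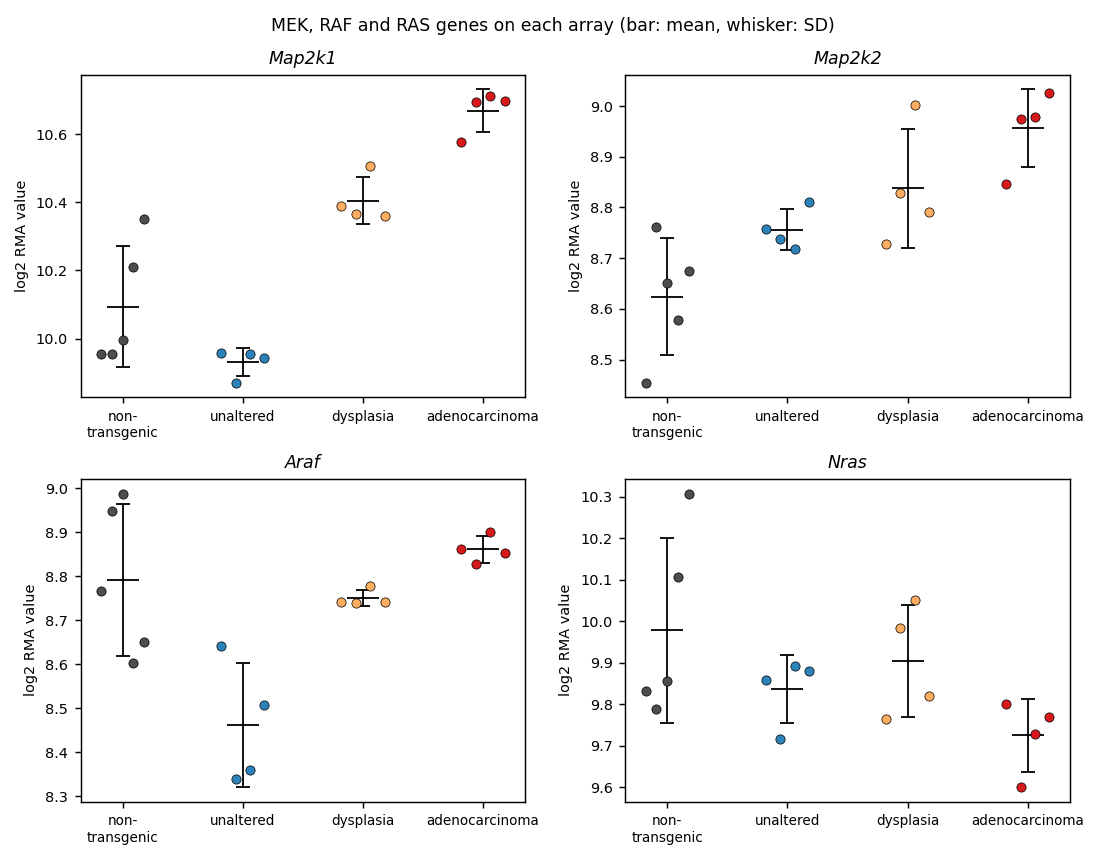
Each point is 1 array, with the group on the x axis and the log2 RMA value on the y axis, which does not start at 0. Bars show the mean and whiskers the SD of n = 5 non-transgenic, 4 unaltered, 4 dysplasia and 4 adenocarcinoma arrays. The Map2k1 dysplasia and adenocarcinoma points, from 10.36 to 10.71, lie above all points of the other groups, whereas the 4 groups overlap for Nras.

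Map2k1 was 1.39-fold higher in dysplasia than in unaltered lung, a log2 change of 0.47 ± 0.08 (SE; limma adjusted p = 0.00063). Within the animal labels that gave both tissues, the difference was 0.43, 0.50, 0.55 and 0.42, so it was positive in all 4 pairs and spread by less than its size. In adenocarcinoma, Map2k1 was 1.68-fold higher than in unaltered lung (log2 0.75 ± 0.09, limma adjusted p = 1.56e-05). Against non-transgenic lung it was 1.47-fold higher (log2 0.56 ± 0.09, limma adjusted p = 0.000166). The rises in dysplasia against unaltered lung and in adenocarcinoma against non-transgenic lung passed under each of the 22 and 24 alternatives tried for them.

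No neighbours in the order of Map2k1 means passed the test. Dysplasia exceeded non-transgenic lung by a log2 0.28 ± 0.10 (limma adjusted p = 0.0773), although no array overlapped. Adenocarcinoma exceeded dysplasia by 0.28 ± 0.09 (limma adjusted p = 0.0661), again without overlap. Unaltered and non-transgenic lung differed by -0.19, with a 95% interval from -0.40 to 0.02. The dysplasia difference from non-transgenic lung passed under 9 of 24 alternatives and rose to 0.45 without non-transgenic replicates 4 and 5 (limma adjusted p = 0.00146). Age and lesion cannot be told apart in adenocarcinoma against unaltered lung, since their ages do not overlap; with age as a covariate the log2 difference was 0.60 (limma adjusted p = 0.149). In that fit 4.99% of all transcript clusters were called, against 25.8% without age.

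Map2k2 moved over a narrower range. Non-transgenic lung read 8.45, 8.76, 8.65, 8.58 and 8.67, and unaltered lung 8.76, 8.74, 8.72 and 8.81. Dysplasia read 8.73, 8.83, 9.00 and 8.79, and adenocarcinoma 8.85, 8.98, 8.98 and 9.03. Adenocarcinoma lay above every non-transgenic and every unaltered array, but dysplasia overlapped both unaltered lung and adenocarcinoma.

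Map2k2 was 1.28-fold higher in adenocarcinoma than in non-transgenic lung (log2 0.36 ± 0.08, limma adjusted p = 0.00311). This call held under 23 of 24 alternatives and was lost with age as a covariate (log2 0.31, limma adjusted p = 0.11). No other Map2k2 comparison passed. Dysplasia against unaltered lung gave 0.08, with a 95% interval from -0.07 to 0.23, and the differences within the 4 animal labels were -0.03, 0.09, 0.28 and -0.02. Adenocarcinoma against unaltered lung gave 0.18, with an interval from 0.01 to 0.36 (limma adjusted p = 0.123). Dysplasia against non-transgenic lung gave 0.26 ± 0.09 (limma adjusted p = 0.078).

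The paralogs were compared by the log2 value of Map2k1 minus that of Map2k2 on each array. The size of this difference depends on the probes of each transcript cluster, so it is only compared between groups. It read 1.20, 1.13, 1.24 and 1.13 in unaltered lung and 1.66, 1.54, 1.50 and 1.57 in dysplasia. In adenocarcinoma it read 1.73, 1.72, 1.73 and 1.67, and in non-transgenic lung 1.50, 1.19, 1.34, 1.63 and 1.68. The 3 transgenic groups did not overlap, and non-transgenic lung overlapped each of them.

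The mean difference between the paralogs was 0.39 larger in dysplasia than in unaltered lung (two-sided exact permutation test, p = 0.0286, adjusted p = 0.0571 over 6 comparisons). It was 0.54 larger in adenocarcinoma than in unaltered lung and 0.15 larger than in dysplasia, with the same exact p of 0.0286 in each case. That p is the smallest that 4 against 4 arrays can give, from 70 rearrangements. By this permutation test 0 of 6 comparisons passed after adjustment, and 5 of 6 had an unadjusted p under 0.05. Without non-transgenic replicates 4 and 5, 5 of 6 passed, and 4 of 6 passed without non-transgenic replicate 2 or without replicate 5. The test treats the arrays as independent, although dysplasia and unaltered lung share animal labels.

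Araf encodes A-Raf, a RAF kinase that phosphorylates MEK like its relative c-Raf, and lies on the X chromosome. It was lowest in unaltered lung. Unaltered lung read 8.64, 8.34, 8.36 and 8.51, and dysplasia 8.74, 8.74, 8.78 and 8.74. Adenocarcinoma read 8.86, 8.83, 8.90 and 8.85, and non-transgenic lung 8.77, 8.95, 8.99, 8.60 and 8.65. The transgenic groups did not overlap each other, whereas non-transgenic lung covered the whole range of dysplasia and adenocarcinoma. Non-transgenic replicates 4 and 5, which were the highest of their group for Map2k1, were the lowest of it for Araf.

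Araf was 1.30-fold higher in adenocarcinoma than in unaltered lung (log2 0.38 ± 0.09, limma adjusted p = 0.00715). It was 1.22-fold higher in dysplasia than in unaltered lung (log2 0.29 ± 0.08, limma adjusted p = 0.0204), with differences of 0.10, 0.40, 0.42 and 0.23 within the 4 animal labels. Between dysplasia and non-transgenic lung no Araf difference was detectable, with a 95% interval from -0.22 to 0.22. Adenocarcinoma against dysplasia gave 0.09 ± 0.09 (limma adjusted p = 0.621), and unaltered against non-transgenic lung gave -0.29 ± 0.10 (limma adjusted p = 0.101). The order of the means was unaltered lung (8.46 ± 0.14), dysplasia (8.75 ± 0.02), non-transgenic lung (8.79 ± 0.17) and adenocarcinoma (8.86 ± 0.03), and of these neighbours only unaltered lung and dysplasia passed the limma test. The dysplasia call for Araf was the less firm: it held under 13 of 22 alternatives and was lost with animals entered as a replicate block (log2 0.29 as before, SE 0.08, limma adjusted p = 0.104) and with quantile normalization (log2 0.19, limma adjusted p = 0.123). Against unaltered lung the adenocarcinoma call for Araf was lost with age as a covariate (log2 0.23, limma adjusted p = 0.767), where age and lesion cannot be told apart, and without the arrays that name 2 animals (limma adjusted p = 0.0774). With age as a covariate 4.99% of all transcript clusters were called there, against 25.8% without it.

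Nras encodes N-Ras, one of the classical RAS GTPases, and lies on chromosome 3. It was the only one of the 4 genes whose call was a fall. Non-transgenic lung read 9.83, 9.79, 9.86, 10.11 and 10.31, and unaltered lung 9.86, 9.72, 9.89 and 9.88. Dysplasia read 9.77, 9.98, 10.05 and 9.82, and adenocarcinoma 9.80, 9.60, 9.73 and 9.77. The groups overlapped in every comparison, and the 2 highest arrays were again non-transgenic replicates 4 and 5.

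Nras fell by 0.31 on the log2 scale (SE 0.11) in adenocarcinoma against non-transgenic lung (limma adjusted p = 0.045). The call rested on a few arrays. Without non-transgenic replicate 5 the Nras difference was -0.19 (limma adjusted p = 0.214), without non-transgenic replicates 4 and 5 it was -0.14 (limma adjusted p = 0.277), and it was -0.10 when sex was set by the Y-linked genes (limma adjusted p = 0.386). By those genes only non-transgenic replicates 4 and 5 count as female. That sex term thus sets the same arrays apart and is not a separate check. The Nras call held under 10 of 24 alternatives, and without non-transgenic replicates 1 to 3 the difference was -0.53 (limma adjusted p = 0.00173). In dysplasia against unaltered lung, Nras differed by 0.07, with a 95% interval from -0.13 to 0.26, and the differences within the 4 animal labels were -0.09, 0.27, 0.16 and -0.06. For Nras the order of means was adenocarcinoma (9.72 ± 0.09), unaltered lung (9.84 ± 0.08), dysplasia (9.90 ± 0.13) and non-transgenic lung (9.98 ± 0.22), and no neighbours in it passed the test.

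Counted over comparisons, 2 of the 4 genes passed in dysplasia against unaltered lung, both higher, where 19.6% of all transcript clusters were called, 14.4% higher and 5.17% lower. The same 2 genes, Map2k1 and Araf, had no array of dysplasia at or below unaltered lung, as held for 15.4% of all transcript clusters, with 5.62% the other way. The median log2 change of the 4 genes there was 0.18 against 0.06 over all transcript clusters. In adenocarcinoma against non-transgenic lung, 3 of 4 passed, 2 higher and 1 lower, with 27.4% of all transcript clusters called, 12.1% higher and 15.3% lower. The arrays did not overlap for Map2k1 and Map2k2, both higher, against 12.7% of all transcript clusters higher and 15.2% lower in that way. The medians were 0.23 for the 4 genes and 0.01 for all. In adenocarcinoma against unaltered lung, 2 of 4 passed, both higher, with 25.8% called in all, 16.1% higher and 9.66% lower, and the medians were 0.28 and 0.06. For 3 of the 4 genes all adenocarcinoma arrays lay above all unaltered ones, against 19.3% of all transcript clusters, with 11.3% below. With 4 genes, such shares are a description.

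In the other 3 comparisons limma called 0 of the 4 genes. For unaltered against non-transgenic lung, 1 gene had an unadjusted p under 0.05, and 8.23% of all transcript clusters were called, 1.34% higher and 6.89% lower. No gene of the 4 had separate arrays there, against 2.86% of transcript clusters higher and 11.9% lower. For dysplasia against non-transgenic lung, 2 genes had an unadjusted p under 0.05, and 13.1% were called, 5.56% higher and 7.5% lower. Map2k1 alone had separate arrays, against 7.56% higher and 10.3% lower. For adenocarcinoma against dysplasia, 1 gene had an unadjusted p under 0.05, and 10.4% were called, 3.79% higher and 6.65% lower. There 2 of the 4 genes, Map2k1 and Araf, were higher on all adenocarcinoma arrays than on all dysplasia arrays, as were 9.34% of all transcript clusters, with 11.8% lower. Comparisons that name the same group share its arrays.

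**Figure D2:**
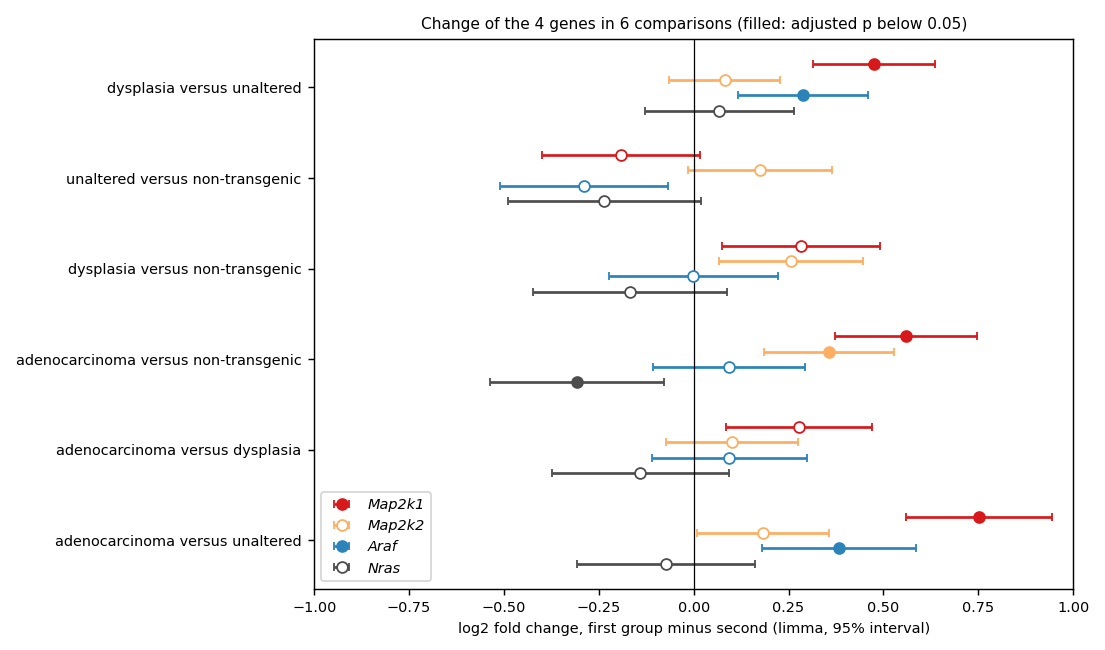
Log2 fold change of Map2k1, Map2k2, Araf and Nras on the x axis in each of the 6 comparisons on the y axis, as the first group minus the second, with 95% intervals from limma; filled points have an adjusted p under 0.05. Map2k1 is filled in 3 comparisons, at 0.47, 0.56 and 0.75, and the Nras point at -0.31 is the only filled one below 0.

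Cell markers moved with the same groups. All 4 measured epithelial markers rose in dysplasia and in adenocarcinoma against unaltered lung, and their mean level was 9.70 to 10.2 in non-transgenic lung, 9.79 to 10.3 in unaltered lung, 10.8 to 11.3 in dysplasia and 11.2 to 11.3 in adenocarcinoma. All 8 endothelial markers fell in both lesions, from a mean level of 11.5 to 11.6 in non-transgenic and 11.0 to 11.3 in unaltered lung to 10.0 to 10.8 in dysplasia and 9.07 to 9.17 in adenocarcinoma. Of 3 measured markers of dividing cells, 3 rose in dysplasia and 2 in adenocarcinoma against unaltered lung. Among all transcript clusters, 14.4% were called higher and 5.17% lower in dysplasia against unaltered lung. In adenocarcinoma against unaltered lung the shares were 16.1% and 9.66%. Of 5 macrophage and 4 T and NK cell markers, 0 were called in dysplasia against unaltered lung. In adenocarcinoma against unaltered lung 2 macrophage markers rose and 1 fell, and 0 T and NK cell markers were called. Of 3 B cell markers 0 were called in dysplasia and 2 fell in adenocarcinoma. Of 6 fibroblast markers 3 fell in dysplasia, and in adenocarcinoma 3 fell and 1 rose, against unaltered lung. The part of these shifts in the change of any of the genes was not tested, and in such tissue fewer cells of a type and less RNA per cell cannot be told apart.

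Within the non-transgenic group, the Map2k1-high replicates 4 and 5 also had the highest epithelial marker means, 10.20 and 10.16 against 9.70, 9.82 and 9.79 on replicates 1 to 3. Unaltered replicate 3 had an epithelial mean of 10.27 and a Map2k1 value of 9.96, below both of those arrays. It also had the highest mean of 3 cardiac muscle markers, 7.77 against at most 6.49 on the other arrays. The part of tissue content in these Map2k1 values was not tested. The mean of 4 smooth muscle markers was also high on these 3 arrays, 9.24 and 9.26 on the non-transgenic and 9.14 on the unaltered one, against 7.99 to 8.17 on non-transgenic replicates 1 to 3.

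**Figure D3:**
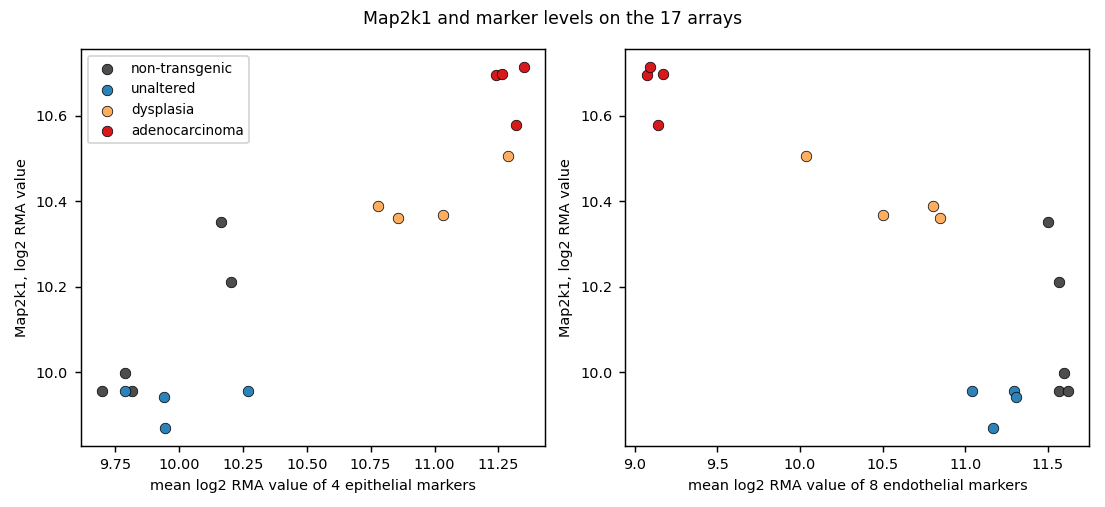
Log2 RMA value of Map2k1 on the y axis against the mean log2 RMA value of 4 epithelial markers (left) and 8 endothelial markers (right) on the x axis, 1 point per array for 17 arrays, coloured by group. Adenocarcinoma lies at the high epithelial end, from 11.2 to 11.3, and at the low endothelial end, from 9.07 to 9.17, and lung without a lesion at the opposite ends.

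Across all 17 arrays, Map2k1 and Map2k2 had a Pearson r of 0.70 and a Spearman rho of 0.63. Araf and Map2k1 had an r of 0.49, and the other pairs lay between -0.32 and 0.27. As deviations from the group means, Nras and Map2k1 had an r of 0.82, to which non-transgenic replicates 4 and 5 belong as the highest of their group for both genes. The arrays share groups and animals, so these correlations are descriptions. The gene most like Map2k1 by Pearson r was Rab25, a GTPase of epithelial membrane recycling (r = 0.99, rho = 0.92). The most like Map2k2 was Tle5, a transcriptional corepressor (r = 0.95, rho = 0.94). For Araf it was Pogz, a chromatin-binding zinc finger protein (r = 0.93, rho = 0.90), and for Nras it was Abhd17c, a serine hydrolase (r = 0.94, rho = 0.88).

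Of 6 listed paralogs of the cascade's genes, 3 were measured, the RAS-related GTPase genes Rras2, Mras and Rras. Each fell in adenocarcinoma against non-transgenic lung, where 15.3% of all transcript clusters were called lower. All adenocarcinoma arrays lay below all non-transgenic ones for each of them, as for 15.2% of all transcript clusters. Rras2, which encodes TC21, read 9.62, 9.72, 9.94 and 9.97 in unaltered lung and 9.38, 9.33, 9.46 and 9.44 in dysplasia. It read 8.86, 8.87, 8.79 and 8.91 in adenocarcinoma, below all other arrays, and 9.83, 9.88, 9.73, 9.72 and 10.13 in non-transgenic lung. Rras2 fell by 0.41 on the log2 scale (SE 0.08) in dysplasia against unaltered lung (limma adjusted p = 0.00276) and by 0.93 (SE 0.10) in adenocarcinoma against unaltered lung (limma adjusted p = 3.91e-06). In adenocarcinoma against dysplasia Rras2 fell by 0.52 (limma adjusted p = 0.00241). With age as a covariate the Rras2 difference was -0.68, with a wider SE of 0.22, and did not pass (limma adjusted p = 0.252). In that fit 0.654% of all transcript clusters were called, against 10.4% without age.

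Mras, which encodes M-Ras, a partner of Shoc2 in the phosphatase complex that activates RAF, also stepped down. It read 7.22, 7.13, 7.43 and 7.40 in unaltered lung, 6.91, 7.02, 6.73 and 6.79 in dysplasia, and 6.59, 6.34, 6.32 and 6.36 in adenocarcinoma. Non-transgenic lung read 7.47, 7.52, 7.44, 7.35 and 7.65, so both lesions lay below all lung without a lesion. Mras fell by 0.43 on the log2 scale (SE 0.09) in dysplasia against unaltered lung (limma adjusted p = 0.00336). With animals entered as a replicate block the Mras change was the same, -0.43, with an SE of 0.12, and did not pass (limma adjusted p = 0.101). Against non-transgenic lung Mras fell by 1.12 (SE 0.10) in adenocarcinoma (limma adjusted p = 7.61e-07).

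Rras, which encodes R-Ras, was lower in all 3 transgenic groups than in non-transgenic lung. It read 9.71, 9.83, 9.79, 10.32 and 10.71 in non-transgenic lung, against 9.44, 9.21, 9.27 and 9.41 in unaltered lung. Dysplasia read 9.25, 9.36, 9.23 and 9.29, and adenocarcinoma 9.32, 9.31, 9.34 and 9.44, so every transgenic array lay below every non-transgenic one. Rras fell by 0.84 on the log2 scale in unaltered against non-transgenic lung (SE 0.19, limma adjusted p = 0.0194), by 0.88 in dysplasia (limma adjusted p = 0.006) and by 0.78 in adenocarcinoma (limma adjusted p = 0.00293). Among transcript clusters in general, 6.89% were called lower in unaltered lung and 11.9% had all unaltered below all non-transgenic arrays. The size of the Rras difference turned on non-transgenic replicates 4 and 5: without replicate 5 it was -0.50 for unaltered lung (limma adjusted p = 0.0955) and -0.51 for adenocarcinoma. For unaltered lung it was -0.43 without replicates 4 and 5 (limma adjusted p = 0.0278). With sex set by the Y-linked genes it was -0.44 (limma adjusted p = 0.00682). That sex term sets replicates 4 and 5 apart from all other arrays, so sex and array set cannot be told apart here. The Rras call in unaltered lung held under 19 of 24 alternatives. With age as a covariate the Rras calls were lost in unaltered lung (-0.65, limma adjusted p = 0.424) and dysplasia (-0.70, limma adjusted p = 0.172), as they were with only the 2 groups compared (-0.88, limma adjusted p = 0.188, and -0.93, limma adjusted p = 0.0903), and for unaltered lung without the arrays that name 2 animals (-0.79, limma adjusted p = 0.105). Such losses were not particular to Rras. With age as a covariate 0.0689% of all transcript clusters were called in unaltered lung and 4.85% in dysplasia. With only the 2 groups compared the shares were 0.0043% and 4.97%, and without the arrays that name 2 animals 1.05% in unaltered lung.

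**Figure D4:**
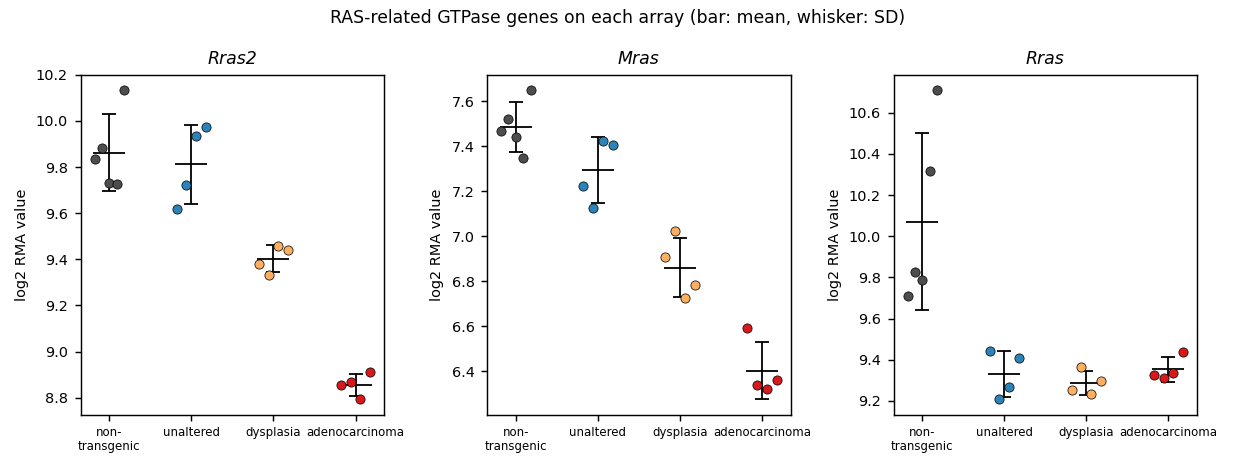
Each point is 1 array, with the group on the x axis and the log2 RMA value of Rras2, Mras and Rras on the y axis, which does not start at 0; bars show the mean and whiskers the SD. Rras2 and Mras are lowest in adenocarcinoma, at 8.79 to 8.91 and 6.32 to 6.59, whereas Rras is at 9.21 to 9.44 in all 3 transgenic groups.

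Other genes of the pathway were followed in lists, with 60 of 82 listed genes measured. In adenocarcinoma against non-transgenic lung 11 rose, 29 fell and 20 did not pass, with a median log2 change of -0.24 against 0.01 over all transcript clusters, of which 12.1% were called higher and 15.3% lower. In dysplasia against unaltered lung 8 rose, 7 fell and 45 did not pass, where 14.4% of all transcript clusters were called higher and 5.17% lower. In unaltered against non-transgenic lung 2 rose and 7 fell, where 1.34% were called higher and 6.89% lower. Endothelial markers fell in both lesion comparisons as described above, and their part in the list counts was not tested.

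Upstream of RAS, 2 of 14 measured activators and adaptors rose and 9 fell in adenocarcinoma against non-transgenic lung, where 12.1% of all transcript clusters were called higher and 15.3% lower. Rasgrf1, an exchange factor for RAS, rose by 1.68 ± 0.08 (limma adjusted p = 2.48e-09), from 4.98 to 5.23 in non-transgenic lung to 6.65 to 6.95. Shc1, an adaptor at growth factor receptors, rose by 0.99 ± 0.17 (limma adjusted p = 0.000329). The exchange factors Rasgrp3, Rasgrf2 and Rasgrp2 fell, with log2 changes of -2.24, -2.22 and -1.58. In dysplasia against unaltered lung Rasgrf1 rose by 1.10 ± 0.07 and Rasgrp2 fell by 0.70. Of 7 measured GTPase activators, which switch RAS off, 5 fell in adenocarcinoma, against 15.3% of all transcript clusters, including Rasa4 (-0.60 ± 0.10) and Dab2ip (-0.40 ± 0.08).

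Around RAF, MEK and ERK, 4 of 14 measured regulators and scaffolds rose and 5 fell in adenocarcinoma against non-transgenic lung, where 12.1% of all transcript clusters were called higher and 15.3% lower. Iqgap1, a scaffold that binds MEK and ERK, rose by 0.75 ± 0.06 (limma adjusted p = 1.15e-07). Map3k8, another kinase that phosphorylates MEK, fell (-1.31 ± 0.14), as did Pea15a, which holds ERK in the cytoplasm (-0.91 ± 0.11), and Shoc2 (-0.90 ± 0.07). Downstream, 1 of 4 measured ERK substrate kinases rose, Rps6ka3 by 0.43 ± 0.07, and 3 fell. Of 11 measured genes of the JNK, p38 and ERK5 modules 3 rose and 4 fell, with the p38 genes Mapk13 and Mapk11 up by 2.09 ± 0.12 and 1.39 ± 0.16 and the p38 gene Mapk14 down (-0.55 ± 0.07). In dysplasia against unaltered lung Mapk13 rose by 0.97 ± 0.11 and Mapk11 by 0.84 ± 0.14.

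**Figure D5:**
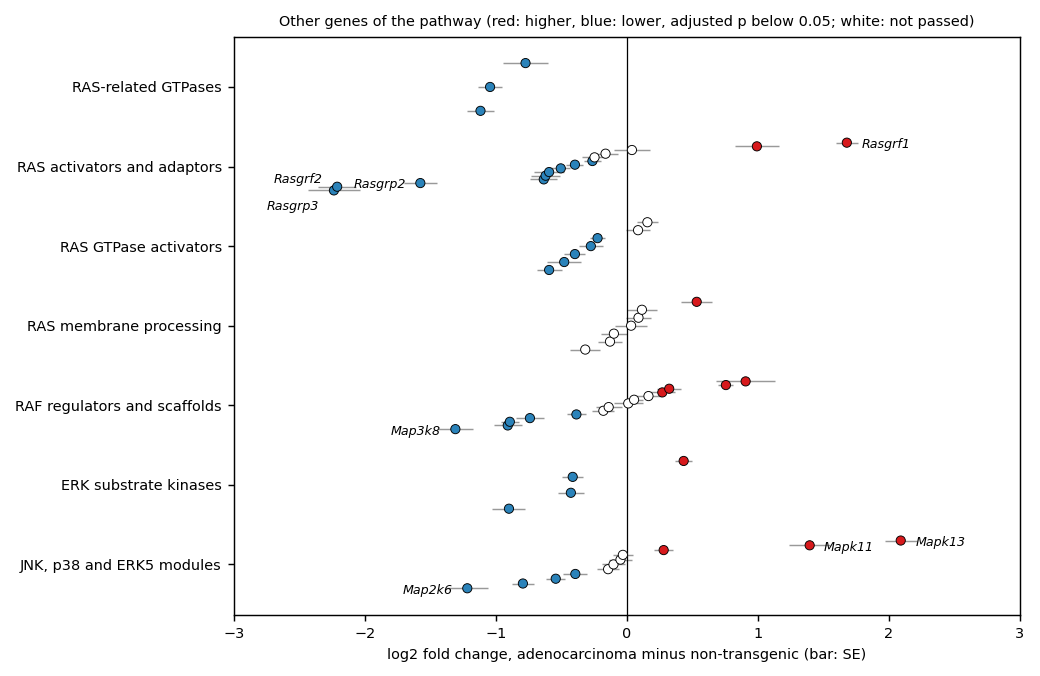
Log2 fold change on the x axis, adenocarcinoma minus non-transgenic lung, of each measured pathway gene, 1 point per gene with its SE, in the 7 lists on the y axis; red points rose and blue points fell at an adjusted p under 0.05 and white points did not pass. Rasgrf1, at 1.68, and Mapk13, at 2.09, stand at the high end and Rasgrp3, at -2.24, at the low end.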

How the data were processed

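Per the labels' protocols, ribosomal RNA was reduced and amplified cRNA was turned into labelled cDNA before hybridisation. What the authors deposited is 1 log2 value per array and core transcript cluster, summarised by RMA in Expression Console, per the labels. The submitters' processing notes name GCOS without a version. The genome build is not given in the sources used here. Values ran from 1.13 to 14.3 and were used unfiltered. Exon-level values were not analysed here.

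The platform annotation gave a single gene symbol to 14939 of 23238 transcript clusters, several to 989 and none to 7310. Comparisons were fitted together in R 4.3.3 with limma 3.58.1, using 4 group means, the sex in the labels and the animal label as a random block (duplicateCorrelation, 0.247), then eBayes and Benjamini-Hochberg adjustment. The paralog comparison used a two-sided exact permutation test; of the RAF, RAS and MEK pairs planned, 1 could be computed, giving 6 tests. The number of arrays limits the precision, and the limma p-values set each difference against the spread between these arrays. The code was tested on simulated data.

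Pairing of dysplasia and unaltered arrays came from the animal labels: deviations from the group means correlated at 0.207, 0.082, 0.155 and -0.0056 in the 4 pairs, against -0.23 to 0.145 in other combinations. The genes and lists were chosen with earlier results of these data known. Named genes are the group's own genes, the RAS-related paralogs, up to 3 called genes per pathway list and direction (some of which are printed), and for each gene the most correlated one. Alternatives were scaling, filters, covariates, blocks and arrays left out.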

Additional observations from a re-analysis of the deposited data

Results flagged for a closer look

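Of 32 sets of arrays (7 genes and the paralog difference in 4 groups), 4 held an array far from the others of its group by Dixon's test; chance gives about 1 such set in 20. For Araf, dysplasia replicate 3 was highest at 8.78, with the nearest array at 8.74. For Map2k1, unaltered replicate 2 was lowest at 9.87 (nearest 9.94) and adenocarcinoma replicate 1 was lowest at 10.58 (nearest 10.69). For Mras, adenocarcinoma replicate 1 was highest at 6.59 (nearest 6.36).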

How the results depend on the processing

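The count of the 4 genes called was recomputed under each alternative. In dysplasia against unaltered lung it was 2 and became 1 without any block, with a fixed replicate block per animal, with quantile normalization, with cyclic loess and without the arrays that name 2 animals, and 1 to 2 with 1 array left out. In unaltered against non-transgenic lung it was 0 and became 1 without the sex term, with quantile normalization, with cyclic loess, with sex from the Y-linked genes and without non-transgenic replicates 4 and 5, and 2 without non-transgenic replicates 1 to 3. In dysplasia against non-transgenic lung it was 0 and became 1 without the sex term, with array weights, with sex from the Y-linked genes, and without either set of non-transgenic arrays; it was 2 with quantile normalization, cyclic loess, a filter on low values and single-symbol transcript clusters alone, and 0 to 1 with 1 array left out. In adenocarcinoma against non-transgenic lung it was 3, stayed 3 under 10 alternatives, was 2 under 13, which all lost Nras, and 1 with age as a covariate. In adenocarcinoma against dysplasia it was 0 and became 1 with quantile normalization, cyclic loess, the low-value filter, single-symbol transcript clusters alone, a trended robust prior, array weights and sex from the Y-linked genes. In adenocarcinoma against unaltered lung it was 2, then 0 with age as a covariate and 1 without the arrays that name 2 animals. The count of paralog differences that passed was 0, then 0 to 4 with 1 array left out and 5 without non-transgenic replicates 4 and 5. Leaving out non-transgenic arrays changed only the adjustment, not the exact p, of the comparisons among the transgenic groups. Sex from the Y-linked genes and the omissions of several non-transgenic arrays were chosen after seeing the data. No result changed direction while called. Results for single genes and for the paralog difference were counted over the alternatives. Of these, 2807 kept their direction and side of the threshold, 251 lost and 32 gained a call, and 30 uncalled values changed sign. They include pathway genes named because they were called with the largest changes, which could not gain a call. For Map2k1 118 were kept, 1 lost and 17 gained, and for Map2k2 127, 1 and 6. For Araf 108 were kept, 11 lost and 3 gained, and for Nras 115, 14 and 2. Changes of sign numbered 14 for Araf, 5 for Nras and 2 for Map2k2. Quantile normalization moved the median of all transcript clusters in unaltered against non-transgenic lung from -0.09 to 0.02, and changed the calls in dysplasia against unaltered lung from 3357 higher and 1201 lower to 2128 and 2239 (cyclic loess 2200 and 1976).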
